A study of Mus musculus with 6 samples.

Results

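The replication-dependent histone genes make up a family of small genes that lie side by side in a few dense clusters. They were chosen here by name and place, as protein-coding H1, H2A, H2B, H3 and H4 genes in 3 windows of the mouse genome. The windows run over chromosome 13 from 21.6 to 23.9 Mb, chromosome 3 from 96.1 to 96.4 Mb and chromosome 11 from 58.9 to 59 Mb. This gave 64 genes of 21887 protein-coding genes in the RefSeq annotation (GRCm38.p6), with 52 on chromosome 13, 10 on chromosome 3 and 2 on chromosome 11. By class they were 6 H1, 17 H2A, 17 H2B, 12 H3 and 12 H4 genes. One H2B gene is listed by RefSeq as H4bc24 (older symbol Hist1h2br) and is called by that symbol below.

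Most of a cell's histone protein is made in S phase, when newly copied DNA has to be wrapped into nucleosomes. An H3-H4 core and flanking H2A-H2B dimers form the nucleosome, and H1 binds the linker DNA between nucleosomes. Messages of the clustered genes end in a stem-loop in place of a poly(A) tail. The protein Npat activates their transcription, and Slbp binds the stem-loop.

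Chromatin came from splenic natural killer (NK) cells, lymphocytes that kill infected or transformed cells, from mice lacking Tcf7 (KO, Tcf7-/-, strain given as B6.129 Tcf7Tm1Cle) and mice with intact Tcf7 (WT, Tcf7+/+, strain B6). Tcf7 encodes Tcf1, a DNA-binding factor of the Tcf/Lef family. Cells of both genotypes were kept for 5 days with 500 ng/mL of interleukin 2, a cytokine that expands NK cells. Chromatin was precipitated with antibodies to H3K4me3, a mark of active promoters, or to Tcf1, and the matching input libraries were not analysed here. With 1 library per genotype and antibody, differences are given without any test against replicates. Strain background and genotype cannot be told apart, nor can the share of cells that carry the mark and the amount of mark per cell.

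The H3K4me3 lists held 11074 peaks in KO and 13771 in WT, and the Tcf1 lists held 5139 peaks in KO and 866 in WT. Depth of the libraries is unknown. Overlapping KO and WT H3K4me3 peaks were joined into 14102 regions, and tags (reads counted in called peaks) were summed per region. KO had a median of 1.19 times the WT tags over the 10612 regions called in both libraries. Each log2 ratio of KO over WT below is given relative to that median, so 0 means the ratio of the typical region, with a 95% interval that covers counting error only. All 10 NK markers had an H3K4me3 region in both libraries. Of the 5 T cell, 4 B cell and 4 myeloid markers found, none had a region in KO, while 3 T cell markers and 1 myeloid marker had one in WT. Of 3 erythroid markers, Klf1 had a region in both.

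Sequence shared by the promoters was described first, since the histone classes carry different promoter elements. RefSeq (GRCm38.p6) holds a promoter window, from 250 bases before to 50 bases after the start, for 59 of the 64 genes. CCAAT, a common upstream promoter element, stood on either strand of the window in 48 of 48 H1, H2A, H2B and H3 genes, in 3 of 11 H4 genes and in 37.4% of all 32851 windows in the table. GTCCG, the core letters of the site bound by the H4 gene activator HiNF-P, stood in 11 of 11 H4 windows, in 15 of the 48 others and in 23.4% of all windows. The octamer ATTTGCAT, the site of the POU factor Oct-1, stood in 12 of 32 H2A and H2B windows, in none of the H1, H3 and H4 windows, and in 1.74% of all windows. TATAAA, the TATA box letters, stood in 33 of 59 windows, or 55.9%, against 13.6% of all. Windows of genes transcribed away from each other overlap, so the genes of such a pair are not separate cases. A match gives the letters alone and does not show that a factor is bound.

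A head-to-head pair in the region with the highest KO over WT ratio, H2bc23 and H2ac23, has 167 bases between the genes (chr13:21810200-21810366, plus strand, toward H2ac23). The pair H2ac20 and H2bc21 lies in a heavily marked region of chromosome 3 and has 191 bases between the genes (chr3:96220881-96221071, minus strand, toward H2ac20). The bases before H4c17 (chr13:21811496-21811745, plus strand) come from the H4 gene beside the first pair and those before H4c18 (chr13:21832198-21832447, minus strand) from its near copy. H2bc14 (chr13:21721794-21722043, plus strand) was added after its values were seen, for its octamer and its high ratio. Each is written 5' to 3', and capitals mark the letters of the 4 elements above on either strand.
H2ac23: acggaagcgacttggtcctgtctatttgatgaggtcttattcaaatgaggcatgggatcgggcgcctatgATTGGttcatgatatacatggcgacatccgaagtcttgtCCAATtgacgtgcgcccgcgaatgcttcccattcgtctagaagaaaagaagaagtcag
H2ac20: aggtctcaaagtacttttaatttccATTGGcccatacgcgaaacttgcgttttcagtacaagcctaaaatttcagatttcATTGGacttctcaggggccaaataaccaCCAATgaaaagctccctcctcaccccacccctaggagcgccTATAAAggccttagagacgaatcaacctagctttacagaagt
H4c17: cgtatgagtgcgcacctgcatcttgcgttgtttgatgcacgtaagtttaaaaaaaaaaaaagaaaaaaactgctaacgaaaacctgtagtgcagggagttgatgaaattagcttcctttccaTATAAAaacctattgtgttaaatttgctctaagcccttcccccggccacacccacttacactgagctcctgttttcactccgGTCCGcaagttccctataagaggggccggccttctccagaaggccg
H4c18: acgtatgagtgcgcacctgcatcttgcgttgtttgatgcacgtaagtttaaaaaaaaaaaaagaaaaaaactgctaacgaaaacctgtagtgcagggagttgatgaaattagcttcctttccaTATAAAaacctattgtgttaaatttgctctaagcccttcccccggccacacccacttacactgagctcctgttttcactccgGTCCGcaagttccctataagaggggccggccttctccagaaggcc
H2bc14: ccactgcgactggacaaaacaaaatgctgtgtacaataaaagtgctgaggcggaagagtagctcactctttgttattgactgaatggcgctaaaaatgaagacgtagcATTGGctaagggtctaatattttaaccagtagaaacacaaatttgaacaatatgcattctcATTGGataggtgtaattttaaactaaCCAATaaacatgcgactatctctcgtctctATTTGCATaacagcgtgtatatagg
Both intergenic stretches of H2A-H2B pairs, as printed, carry the CCAAT letters and no GTCCG, and that of H2ac20 also carries TATAAA. The RefSeq windows of H2ac23 and H2bc23, which run beyond the printed bases, each hold 1 GTCCG. The H4 stretches, near copies of each other, carry TATAAA followed by GTCCG and no CCAAT. In both, TATAAA stands near the middle of the stretch, well before the start, and GTCCG lies nearer the start. The position of a match was not used, so TATAAA here is not shown to be a TATA box. Of the 11 H4 windows, 8 hold TATAAA and 3 hold CCAAT.

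H4c17 and H4c18 matched at 99.7% of 299 bases of their windows, and H2bc23 and H4bc24 at 100% of 300. H3c15 and H3c14 matched at 99.6% of 285 bases, and H4c11 and H4c12 at 95.8% of 286. These were the 4 pairs, among 1711 pairs of members, that matched at 90% or more with windows shifted by at most 20 bases. Copies with annotated starts further out of step were missed. H2ac23 and H2ac24, and H2ac18 and H2ac19, share long runs of letters in this way. How reads that fit both copies were placed is not given in the sources used here, so the tags of the 8 genes of the 4 pairs are uncertain. The same holds for the copies that were missed. Bases outside the windows were not compared, so other genes may be affected too. The 12 neighbouring pairs transcribed away from each other had 163 to 607 bases between the genes, and 11 of them joined an H2A to an H2B gene.

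Nearly all the histone genes carried H3K4me3 in both genotypes. A called peak overlapped the gene or came within 500 bp of it for 59 genes in KO and 63 genes in WT, and all 59 were among the 63. By the same rule 49.6% of all protein-coding genes were marked in KO and 56.1% in WT. By class, the mark was called at 4 H1 genes in KO and 5 in WT, at all 17 H2A genes in each, and at all 12 H3 genes in each. It was called at 16 H2B genes in KO and 17 in WT, and at 10 H4 genes in KO and 12 in WT. H1f6, which encodes the H1 variant of testis (H1t), had no peak in either library. With peaks of a score of at least 100 alone, 58 genes were marked in KO and 58 in WT.

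Histone genes that lie within a few kb share peaks, so the 63 marked genes fell into 42 regions. Of these, 37 were called in both libraries, 5 in WT alone and none in KO alone. Over all regions, 22.0% were called in WT alone and 2.79% in KO alone. The 5 regions without a KO peak had few tags in WT, 69 tags at H4c2, 59 at the linker histone gene H1f1, 45 at the H2B gene H2bu2, and 42 each at H4c6 and H4c9. Genes H4c2, H4c6, H1f1 and H2bu2 were the 4 marked in WT alone, where 6.84% of all protein-coding genes were. H4c9 still counted as marked in KO, since a peak called at its neighbours H2ac11 and H2bc11 came within 500 bp of it. A peak that was not called is below the peak caller's threshold, which is not the same as no signal.

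**Figure D1:**
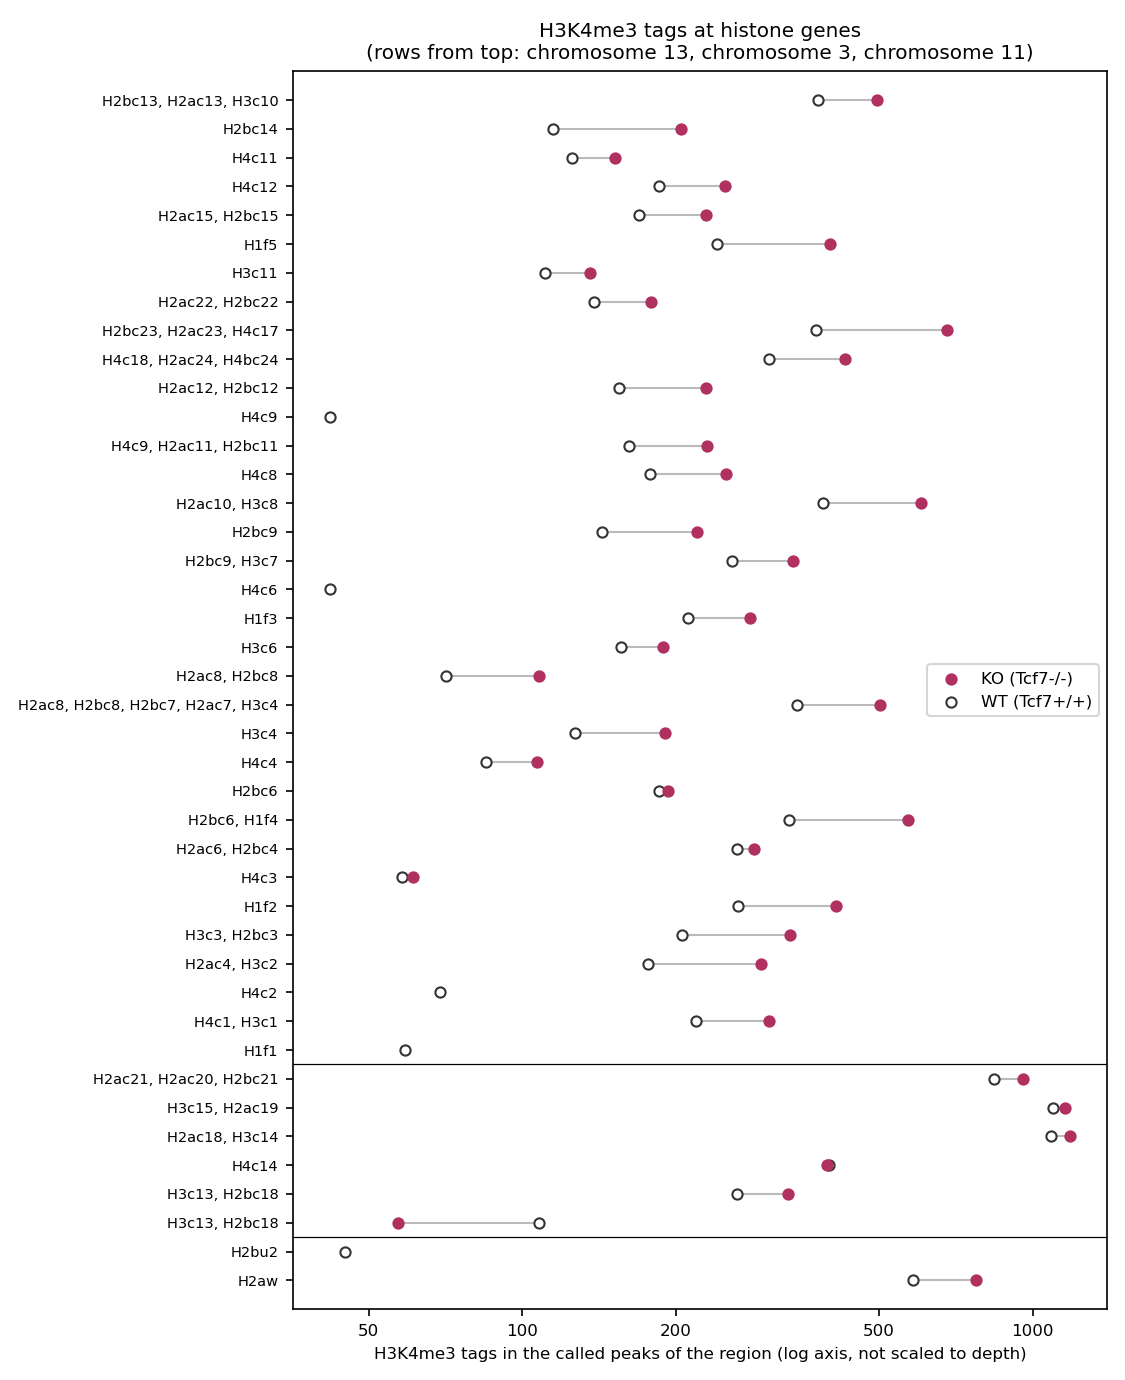
H3K4me3 tags (log axis, not scaled to depth) of the 42 regions at histone genes, in KO (filled) and WT (open), in genome order within chromosomes 13, 3 and 11. Regions of chromosome 13 run up to 680 tags in KO and 389 in WT, chromosome 3 holds the regions near 1000 tags, and the 5 open circles with no partner are the regions called in WT alone.

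Histone regions were lightly tagged for their width. Their median was 285 tags in KO and 206 in WT, against 591.5 tags in KO and 491 in WT over all regions called in both. Per kb of called peak the histone medians were 125 tags in KO and 89.2 in WT, beside 279 tags per kb in KO and 219 in WT over all regions. Median width was 2395 bp at histone genes and 2283 bp over all regions. The lower level was thus seen at about the same width. By cluster it was seen on chromosome 13, with medians of 119 tags per kb in KO and 85.8 in WT. On chromosome 3 the medians were 274 in KO and 206 in WT, and the single region of chromosome 11 had 251 in KO and 178 in WT.

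Relative to the typical region, the mark at histone genes was more often higher than lower in KO. Their median log2 ratio was 0.19, with a range of -1.17 to 0.61, and 29 of 37 regions lay above 0, where 50% of all regions lie by construction. The summed tags were 13719 in KO and 10502 in WT over the same 37 regions, a log2 ratio of 0.14 (95% counting interval 0.10 to 0.17). The intervals lay above 0 for 14 of the 37 regions, beside 19.5% of all regions, and below 0 for 4, beside 22.7% of all regions. A log2 ratio above 0.5 was found at 3 of the 36 regions with at least 100 tags in a library, where 1.95% of all such regions reach it, and one below -0.5 at 1, where 7.74% do. Called peaks were not equally wide in the libraries. Per kb of peak the median log2 ratio was 0.10 and none of the regions lay above 0.5. The deposited fold enrichment over the caller's background was lower in KO than in WT at most of the 37 regions. At the 3 regions above 0.5 it was 6.79 in KO and 10.24 in WT at H2bc23, and 8.11 in KO and 21.06 in WT at H2bc14. The third, at H1f4, had 15.05 in KO and 14.85 in WT. How fold enrichment ran over all regions is not given here.

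**Figure D2:**
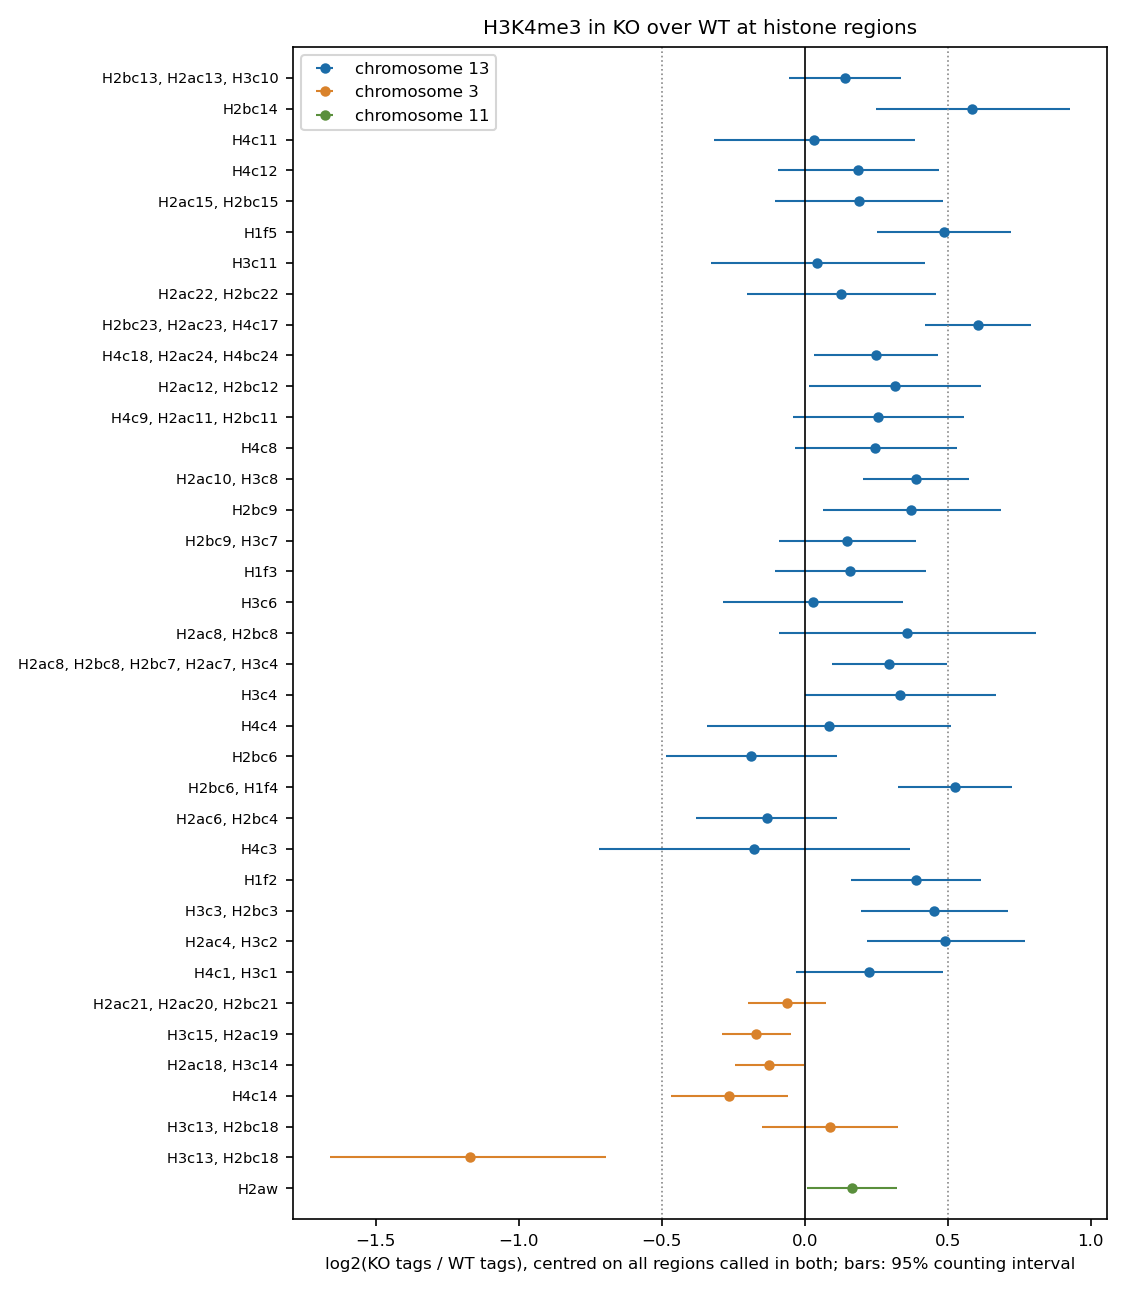
Log2 ratio of KO over WT H3K4me3 tags at the 37 histone regions called in both libraries, relative to the median of all regions called in both, with 95% counting intervals, coloured by chromosome. On chromosome 13, 27 of 30 regions lie to the right of 0, and on chromosome 3, 5 of 6 lie to the left; dotted lines mark -0.5 and 0.5.

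The clusters differed in the direction of their regions. On chromosome 13, 27 of 30 regions lay above 0, with a median of 0.25, and 13 intervals lay above 0 and none below. This held along the chromosome, with a median of 0.19 in the first group of regions at the low-coordinate end (10 of 10 above 0), 0.29 in the middle group (2 of 2) and 0.27 in the last group (15 of 18). On chromosome 3, 1 of 6 regions lay above 0, with a median of -0.15, and 4 intervals lay below 0. Centred on total tags, 2 of 6 regions lay above 0 and 1 interval lay below it, while 27 of 30 lay above 0 on chromosome 13. Above 0 per kb of peak were 3 of 6 on chromosome 3 and 23 of 30 on chromosome 13. The single region of chromosome 11 called in both, at the H2A gene H2aw, had 775 tags in KO and 582 in WT, a ratio of 0.16 (0.01 to 0.32).

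Tag level moved with the cluster. The median was 250.5 tags in KO and 181.5 in WT on chromosome 13, and 676 tags in KO and 620 in WT on chromosome 3. With each region set against regions of similar tag level (10 bins), the median was 0.30 on chromosome 13 and -0.14 on chromosome 3. Per kb of peak it was 0.13 on chromosome 13 and -0.01 on chromosome 3. The part of tag level and peak calling in the contrast between clusters was not tested beyond these values.

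**Figure D3:**
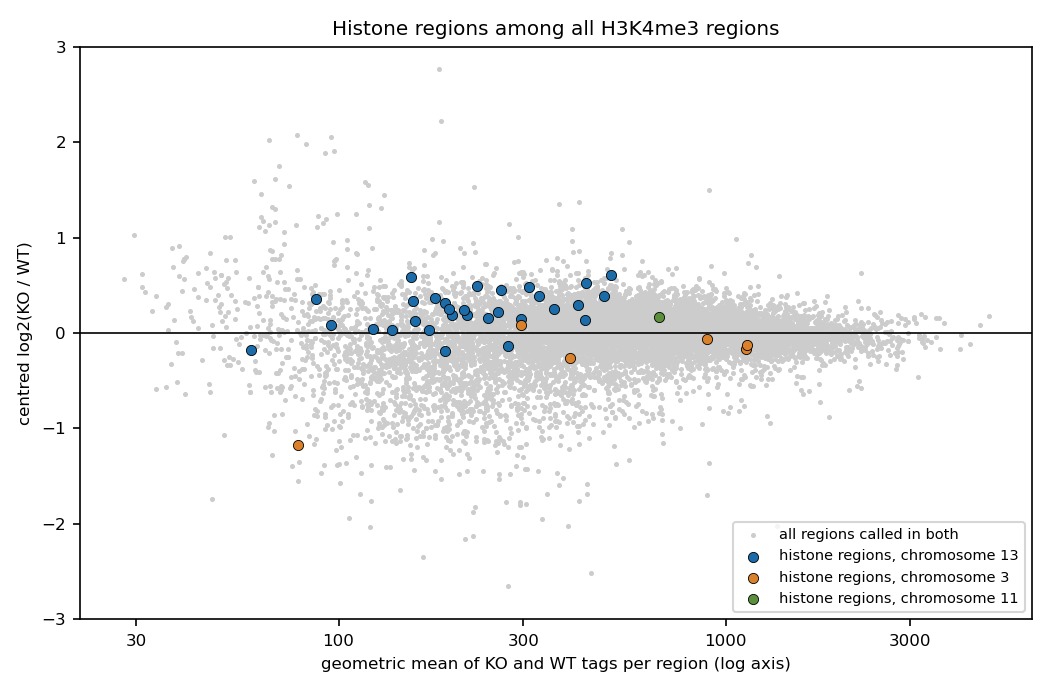
Mean tag level (log axis) against the log2 ratio of KO over WT for all regions called in both libraries (grey) and for the histone regions (coloured by chromosome). Histone regions of chromosome 13 sit at low tag levels and mostly above 0, and most of those of chromosome 3 sit at higher levels and just below 0.

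Regions holding a linker histone gene had the highest median ratio by class. H1f5 (region chr13:21778421-21781071) had 401 tags in KO and 241 in WT, a log2 ratio of 0.49 (0.25 to 0.72). The region of H1f4 (chr13:23619866-23622949) had 569 tags in KO and 333 in WT, a ratio of 0.52 (0.33 to 0.72). It also holds the upstream end of the long annotated model of the H2B gene H2bc6, so its tags are not those of H1f4 alone. H1f2 (chr13:23738430-23741401) had 412 tags in KO and 265 in WT, a ratio of 0.39 (0.16 to 0.62). All 3 were higher in KO by more than their counting intervals. H1f3 (chr13:23554674-23556867) had 280 tags in KO and 211 in WT, a ratio of 0.16 (-0.10 to 0.42) that its interval does not separate from 0. Over the 4 regions the median was 0.44. Among regions holding 1 class alone, the median was 0.39 for H1 (3 regions) and 0.37 for H2B (3 regions). Within bins of tag level these were 0.419 for H1 and 0.485 for H2B, and per kb of peak 0.40 for H1 and 0.11 for H2B. H1f1, as given above, had a peak in WT alone, so the class was not uniform. Per kb of peak the median of the 4 was 0.41, while H1f3 alone turned negative, at -0.19.

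Regions holding H2A or H2B genes, which encode the partners of the nucleosome's outer dimers, included the highest single ratio. The region of H2bc23, H2ac23 and H4c17 (chr13:21808749-21814955), whose promoters are shown above, had 680 tags in KO and 376 in WT, a ratio of 0.61 (0.42 to 0.79) or 1.52-fold. H2bc14 (chr13:21720671-21722609), the H2B gene with the octamer shown above, had 205 tags in KO and 115 in WT, a ratio of 0.58 (0.25 to 0.93). These 2 regions and that of H1f4 were the 3 above 0.5. Called peaks were wider in KO at both, 6207 bp in KO and 5596 bp in WT at H2bc23 and 1763 bp in KO and 1324 bp in WT at H2bc14. Per kb of peak the ratios were 0.40 at H2bc23 and 0.11 at H2bc14. At H2bc14 the KO peak covered the RefSeq start and the WT peak did not reach it, so the tags come from different stretches.

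The near copy of the first region, with H4c18, H2ac24 and H4bc24 (chr13:21830916-21835217), had 429 tags in KO and 304 in WT, a ratio of 0.25 (0.03 to 0.46). Per kb of peak it was 0.02. These copies share promoter letters almost entirely, so a division of reads between them is uncertain, and it is not shown that the genes differ. Without the regions of the 8 genes with near-identical promoters, 31 regions kept a median of 0.19, and 2 lay above 0.5. Genes alike only outside the promoter windows, or only at a shift beyond 20 bases, were not sought for this.

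The region with most members held H2ac8, H2bc8, H2bc7, H2ac7 and H3c4 (chr13:23571372-23575376). It had 503 tags in KO and 345 in WT, a ratio of 0.29 (0.09 to 0.50). With its 2 close neighbours at the same genes joined to it, as peaks within 500 bp, the 3 had 801 tags in KO and 543 in WT, a ratio of 0.31 (0.15 to 0.47). The region of H2bc13, H2ac13 and H3c10 (chr13:21714896-21718835) had 496 tags in KO and 379 in WT, a ratio of 0.14 (-0.06 to 0.34). Over the 21 regions with 2 or more members the median was 0.22, with 16 above 0, 8 intervals above 0 and 3 below.

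All 10 regions with an H3 gene on chromosome 13 lay above 0, close to the 27 of 30 for all histone regions there. Their median was 0.26, with 5 intervals above 0 and a range from 0.03 at H3c6 to 0.49. Per kb of peak the region of H2bc13, H2ac13 and H3c10 fell to -0.02. H3 pairs with H4 in the nucleosome core. H2ac4 and H3c2 (chr13:23750752-23753335) had 294 tags in KO and 176 in WT, a ratio of 0.49 (0.22 to 0.77). H3c3 and H2bc3 (chr13:23744348-23747443) had 335 tags in KO and 206 in WT, a ratio of 0.45 (0.20 to 0.71). Both exceeded their counting intervals. H3c6 had 189 tags in KO and 156 in WT, and H3c11 had 136 tags in KO and 111 in WT, a ratio of 0.04. Both hold an H3 gene alone, and both intervals include 0. Over all 14 regions holding an H3 gene the median was 0.14, with 11 above 0, and 3 of these regions are among those of chromosome 3 with intervals below 0.

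Regions with an H4 gene alone had fewer tags per kb than those with H1, H2A, H2B or H3 genes alone, with medians of 103 in KO and 84.0 in WT. The 6 regions holding an H4 gene alone had 61 to 395 tags in KO and 58 to 399 in WT, a median ratio of 0.06 and 4 above 0. H4c3 (chr13:23697554-23698788) was the only one of the 37 regions under 100 tags in both libraries, with 61 in KO and 58 in WT, a ratio of -0.18 (-0.72 to 0.37). H4c14 (chr3:96261748-96265338) had 395 tags in KO and 399 in WT, a ratio of -0.26 (-0.47 to -0.06), and 0.00 per kb of peak. Of the 5 regions called in WT alone, 3 were at H4 genes. The joined regions of H4c9, H2ac11 and H2bc11 had 230 tags in KO and 204 in WT, a ratio of -0.08 (-0.35 to 0.20), where the KO peak alone gave 0.26.

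The 3 regions of the family with most tags lay on chromosome 3, with ratios below 0. H2ac18 and H3c14 (chr3:96244035-96248267) had 1184 tags in KO and 1086 in WT, a ratio of -0.12 (-0.245 to -0.004). H3c15 and H2ac19 (chr3:96237217-96241103) had 1157 tags in KO and 1095 in WT, a ratio of -0.17 (-0.29 to -0.05). H2ac21, H2ac20 and H2bc21 (chr3:96218900-96222923) had 957 tags in KO and 841 in WT, a ratio of -0.06 (-0.20 to 0.07). Per kb of peak the ratios were -0.02, -0.10 and 0.04, in the same order. All 3 had more tags in KO, yet by less than the 1.19-fold of the typical region. H3c15 and H3c14 are near copies, so their tags are uncertain one by one.

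The lowest ratio came from a locus called as 2 neighbouring regions. The second of 2 regions at H3c13 and H2bc18 (chr3:96269617-96270567) had 57 tags in KO and 108 in WT, a ratio of -1.17 (-1.66 to -0.70), and the first (chr3:96268222-96269535) had 332 tags in KO and 263 in WT, a ratio of 0.09 (-0.15 to 0.33). With peaks within 500 bp joined, the locus had 389 tags in KO and 371 in WT, a ratio of -0.18 (-0.39 to 0.03), so no region then lay below -0.5. On chromosome 13 the 3 regions below 0 were that of H4c3, given above, that of H2bc6 and that of H2ac6 and H2bc4. The region of H2bc6 (chr13:23584433-23586325) holds a RefSeq start of that gene and lies inside its long model. It had 193 tags in KO and 185 in WT, a ratio of -0.19 (-0.49 to 0.11). The region of H2ac6 and H2bc4 (chr13:23682948-23686288) had 285 tags in KO and 263 in WT, a ratio of -0.13 (-0.38 to 0.11). None of the 3 intervals leaves out 0.

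Other genes of the same windows also had a median above 0. There were 12 regions at other protein-coding genes, of which 9 were called in both libraries and 3 in WT alone. Their median ratio was 0.17, with 7 of 9 above 0, beside 0.19 for the histone regions. Centred within 10 bins of tag level it was 0.11, beside 0.25 for the histone regions. Per kb of peak the order was reversed, with 0.110 for these other genes and 0.097 for the histone regions. The highest were Bola1 on chromosome 3, with 376 tags in KO and 235 in WT (0.43, interval 0.19 to 0.67), and the protease gene Prss16 on chromosome 13, with 595 tags in KO and 419 in WT (0.26, interval 0.07 to 0.44). The lowest were Rnf187 on chromosome 11, with 1104 tags in KO and 985 in WT (-0.08), and the zinc finger gene Zfp184 on chromosome 13, with 178 tags in KO and 156 in WT (-0.06). The 3 neighbours on chromosome 3 lay between 0.00 and 0.43, while the histone median there was -0.15.

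Tcf1 peaks were not called near the histone genes. None of the 866 WT peaks lay in the windows. In KO, which lacks Tcf7, 6 of 5139 peaks did, all on chromosome 13, with 10 to 56 tags and a false discovery rate of 84.08 to 100% in the deposited list. The nearest of them was 13.6 kb from H2bc13, so no histone gene had a Tcf1 peak within 5 kb in either library. Of all protein-coding genes, 7.84% had one in KO and 1.68% in WT. A count of 0 among 64 genes is close to the WT share and below the KO share. Histone genes are short, with a median of 494.5 bp against 17169 bp for all genes, and the part of gene length in these counts was not tested. Tcf7 itself lies on chromosome 11, 6.67 Mb from H2aw.

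Genes that act on histone messages were compared next. All 21 had an H3K4me3 region in both libraries, with a median ratio of 0.07 and 17 above 0. None passed 0.5 or -0.5, with 7 intervals above 0 and 1 below. Npat had 1163 tags in KO and 906 in WT (0.11, interval -0.02 to 0.24), and its partner in histone locus bodies, Casp8ap2, had 678 tags in KO and 478 in WT (0.26, interval 0.08 to 0.43). Slbp had 725 tags in KO and 508 in WT, a ratio of 0.26. Lsm11, a subunit of the U7 particle that trims histone messages, had 934 tags in KO and 744 in WT, a ratio of 0.08. The highest was the S phase kinase Cdk2, with 731 tags in KO and 469 in WT, a ratio of 0.39. The lowest were Pou2f1, which encodes Oct-1, with 1708 tags in KO and 1551 in WT (-0.11), and Upf1, a helicase of histone message decay, with 1687 tags in KO and 1498 in WT (-0.08).

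Histone chaperones, which carry new histones to DNA, had a median of 0.09 with 12 of 17 above 0 and none past 0.5 or -0.5. Asf1b, the H3-H4 chaperone of dividing cells, had 703 tags in KO and 436 in WT, a ratio of 0.44. Nasp, which holds soluble H3-H4, had 910 tags in KO and 611 in WT, a ratio of 0.33. The other Asf1 gene, Asf1a, had 1364 tags in KO and 1254 in WT, a ratio of -0.13, and the importin gene Ipo4 had 303 tags in KO and 278 in WT, a ratio of -0.12. The 2 Asf1 genes thus stood at opposite ends of the list.

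Histone genes outside the clusters, which are expressed also outside S phase, were marked at 9 of 11 in KO and 11 of 11 in WT. Macroh2a2, with 125 tags in WT, and the linker histone gene H1f10, with 113, had no peak in KO. The 9 others had a median of 0.09, with 7 above 0. Cenpa, the H3 variant of centromeres, had 976 tags in KO and 681 in WT (0.27), and H3f3b, which encodes H3.3, had 1406 tags in KO and 1008 in WT (0.23). H1f0, a linker histone of resting and differentiated cells, had 193 tags in KO and 426 in WT, a ratio of -1.39, and Macroh2a1 had 1805 tags in KO and 1668 in WT (-0.14). H1f0 was the one gene of the 4 lists below -0.5, and the clustered H1 genes called in both libraries lay between 0.16 and 0.52.

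DNA replication genes, another S phase group, had a higher median than the histone regions. All 34 had a region in both libraries, with a median of 0.31 and 33 above 0, and 28 intervals lay above 0 and none below. Centred within 10 bins of tag level the median was 0.29, beside 0.25 for all histone regions and 0.30 for those of chromosome 13. Of the 34, 9 passed 0.5. Prim1, a primase subunit, had 308 tags in KO and 145 in WT, a ratio of 0.84, and Mcm2, a subunit of the replicative helicase, had 526 tags in KO and 256 in WT, a ratio of 0.79. The lowest were the polymerase gene Pole, with 687 tags in KO and 622 in WT (-0.11), and the clamp loader gene Rfc5, with 600 tags in KO and 483 in WT (0.06). The difference between the lists was not tested, since each genotype has 1 library.

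**Figure D4:**
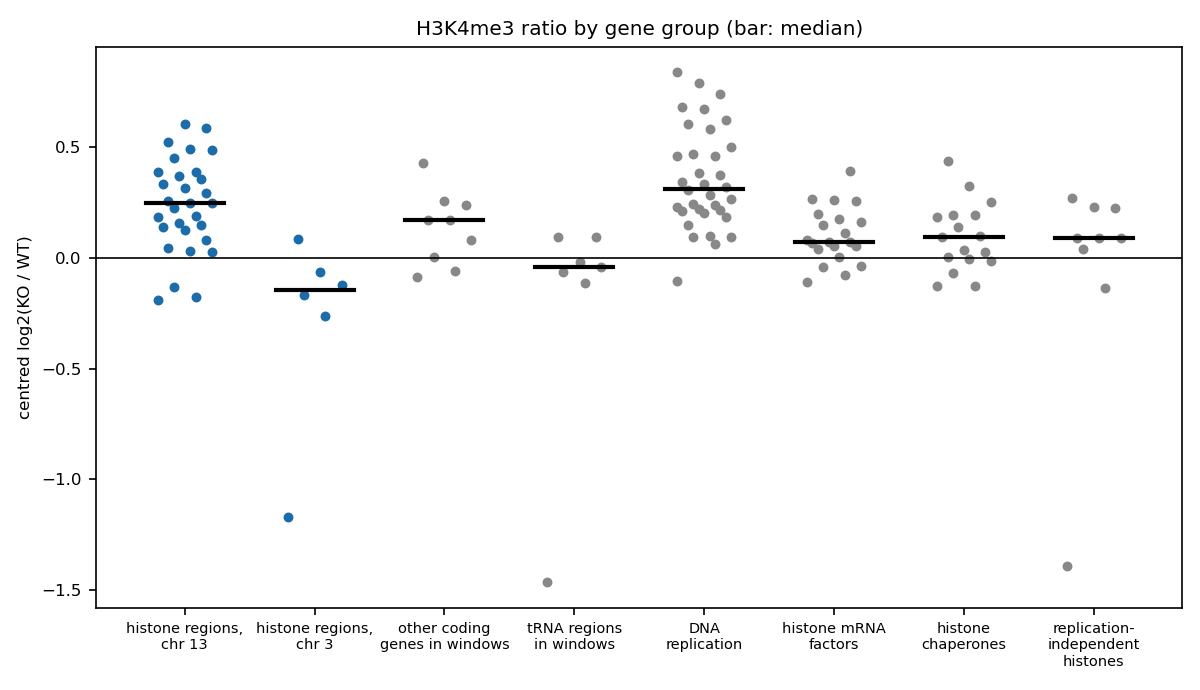
Log2 ratio of KO over WT H3K4me3 tags for each region (points) of the histone clusters, the other genes and tRNA regions of the windows and the 4 gene lists, with the median of each group as a bar. Histone regions of chromosome 13 have a median of 0.25 and those of chromosome 3 of -0.15, beside 0.31 for DNA replication genes and 0.07 for genes that act on histone messages.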

How the data were processed

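Peaks were called per library, per the file headers, 1 list for each of the 4 antibody libraries. Tools listed in the submitters' processing notes are Bowtie2 2.1.0 and MACS 1.4. The listed builds are GRCm38, mm10 and GRCh37, without saying what each was for. Peak calling settings, the control track and the handling of reads that fit several places are not given in the sources used here. The deposited tag counts are whole reads per peak, not scaled to depth. Per the file headers, the deposited score multiplies -log10 of the p-value by 10. The deposited fold enrichment is a ratio over the caller's background and was not used for the log2 ratios. The deposited false discovery rate is in percent.

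Repeated lines were reduced to distinct peaks, and starts were shifted to count from 1. Positions were read as GRCm38/mm10. KO and WT H3K4me3 peaks overlapping by 1 bp or more were merged, and tags were summed per region and library. Log2 ratios were centred on the median of regions called in both (0.25). Intervals at 95% are exact binomial intervals of the tag ratio. PCR copies were not identified, so they cover counting error only. A ratio beyond 0.5 in size, with at least 100 tags in 1 library, stands in for a call. Genes of the 4 other lists took the region within 1 kb of the RefSeq start, or of the gene's ends where no promoter entry was held.

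Histone regions named are the 6 highest and 6 lowest ratios, the 5 with most tags, the 5 with most members and those called in 1 library, and other lists give the 2 highest and 2 lowest. H1f2, H1f3 and the first H3c13 region were added after their values were seen. Members, lists and rules were chosen with earlier results of these data known. RefSeq (GRCm38.p6) gave genes and promoters, and H2aw, H2bu2 and H4bc24 were matched by older symbols. Planned protein sequences are not shown. Alternatives were scores of at least 100, other distances, merging within 500 bp, tags per kb, centring on total tags and centring within 10 bins of tag level. The ratio and its interval were tested on simulated tags with counting error alone and with changes larger than nearly all seen here. That test checks the computation and not the variation between libraries. Computations ran in Python 3.11.15 with scipy 1.17.1, pandas 2.3.3 and numpy 2.4.6, and plots in matplotlib 3.10.9.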

Additional observations from a re-analysis of the deposited data

How the results depend on the processing

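No paired analysis was possible because each group holds 1 library, and no library could be left out for the same reason. The median log2 ratio of the histone regions stayed above 0 under every alternative run, between 0.10 and 0.26. It was 0.256 centred on total tags, 0.250 centred within 10 bins of tag level and 0.097 per kb of peak. On chromosome 13 alone, chosen after seeing the data, it was 0.247, and with regions called in WT alone placed lowest, also chosen after seeing the data, it was 0.154. Regions above 0.5 were 3 as reported, 6 centred on total tags and 0 per kb of peak. The 1 region below -0.5 was lost with scores of at least 100 and with peaks within 500 bp merged, 0 in each. Within 50 kb, 6 histone genes had a Tcf1 peak in KO and 0 in WT. The centre was 0.18 on total tags and 0.25 as reported.

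Centred on total tags, medians were 0.242 for other genes of the windows, 0.145 for genes acting on histone messages, 0.165 for chaperones, 0.162 for histone genes outside the clusters and 0.384 for DNA replication genes. Per kb of peak they were 0.110 for other genes of the windows, 0.037 for chaperones, 0.180 for histone genes outside the clusters and 0.239 for DNA replication genes. Within bins of tag level, other genes of the windows had 0.107 and DNA replication genes 0.289. Of 42 alternative values of named histone regions, 37 moved by less than the mean distance from the value to its interval's limits and 5 by more, all per kb of peak. Counts by chromosome under other settings, and such values for H1f2, H1f3 and the first H3c13 region, were added after seeing the data.

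Tags exist for called peaks alone, so regions near the caller's threshold, such as those at H4 genes, can be listed in 1 library by a small difference. Depth is unknown, and counting intervals were wide at regions with few tags.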

Other observations

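The windows of chromosome 13 also hold many tRNA genes, which are transcribed by RNA polymerase III. H3K4me3 was called at 9 regions within reach of tRNA genes and of no protein-coding gene, 7 of them in both libraries and 2 in WT alone. Their median log2 ratio was -0.04, with 2 of 7 above 0, where the histone regions of that chromosome had 0.25 and 27 of 30 above 0. The lowest, at n-TRacg1 and n-TScga1 (chr13:22019917-22022518), had 59 tags in KO and 137 in WT, a ratio of -1.46 (-1.93 to -1.01), and -0.12 per kb of peak. The difference between the tRNA and histone regions was not tested.

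The summit of the mark was placed against the RefSeq start for genes whose start lay inside a called peak. It was downstream of the start for 33 of 52 genes in KO and 42 of 56 in WT, with neighbours sharing peaks. At regions holding a single member, the summit called by the authors was downstream of the RefSeq start by a median of 291.5 bp in KO, at 11 of 12 genes, and of 280 bp in WT, at 15 of 15 genes. The one exception in KO was H2bc14, with a summit at -410 bp, upstream of the start. Its WT peak did not reach the start, so it has no WT value.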
